A study of Homo sapiens with 6 samples.

Results

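The expression of 10 genes of the NRF2 and glutathione system was examined in OVCAR8, an established line of high grade serous ovarian cancer. The genes were taken by name, with earlier results of these data known: GCLM, GCLC, GSR, SLC7A11, NQO1, TXNRD1, SRXN1, HMOX1, NFE2L2 and KEAP1. All 10 were among the 14930 genes of the RNA-Seq matrix, and all 10 reached 10 in 2 or more samples, the condition for testing that 9671 genes met. The matrix holds 6 samples in 3 groups of 2 replicates, collected at 72 hours. Control cells (Ctrl) received the vehicle DMSO. The second group received 5 μM DZNep, 3-deazaneplanocin A, an inhibitor of S-adenosylhomocysteine hydrolase that blocks many methyltransferases and lowers EZH2 protein in many cells. The third group (shEZH2) carried a doxycycline-inducible short hairpin against EZH2, the catalytic subunit of Polycomb repressive complex 2, and received 1 μg/mL doxycycline. It is the line carrying hairpin 2. No group with doxycycline alone or with a non-targeting hairpin was among the 6 samples, so an effect of the hairpin and one of doxycycline cannot be told apart. The methods do not say which line gave the control RNA, or whether the shEZH2 cells received DMSO. A difference of line or vehicle therefore cannot be told apart from these effects either.

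NRF2, the product of NFE2L2, is a transcription factor that KEAP1 holds in the cytoplasm and presents to a CUL3 ubiquitin ligase for degradation. Oxidants and electrophiles modify cysteines of KEAP1, NRF2 then accumulates, pairs with a small MAF protein and binds the antioxidant response element, a site that the repressor BACH1 also binds. Its targets supply glutathione, reduce thioredoxin and peroxiredoxins, detoxify quinones and degrade heme, and tumours with an active NRF2 pathway are known for resistance to oxidative stress and to platinum. None of this regulation of protein is visible in transcript levels, which are what was measured here.

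To show where the letters of the response element lie near the members, the core TGACNNNGC was searched on both strands in RefSeq promoter windows of GRCh38.p14, from 250 bases before to 50 bases after a start. The member windows used were 10 windows of 7 members, 2 each for TXNRD1, KEAP1 and NFE2L2. No window of SLC7A11, HMOX1 or GSR was among them. Whether those genes have such a window, or the core in it, was not examined, and the member counts below leave them out. The core was present in the windows of GCLM, TXNRD1 and KEAP1, which were 4 of the 10 windows, against 4687 of all 35116 windows (13.3%). With an A after the core, which is a subset of the same matches, it was present in 3 of the 10 windows, 1 for each of the same 3 genes, against 1118 of all windows (3.18%). The 6 matches are printed with 10 bases on either side, 5′ to 3′ on the strand that reads TGACNNNGC, with the 9 bases of the core in capitals.
GCLM, strand opposite to the gene, chr1:93909446-93909474: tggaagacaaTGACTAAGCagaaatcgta
KEAP1, opposite strand, chr19:10502784-10502812: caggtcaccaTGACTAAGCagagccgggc
KEAP1, same strand, chr19:10502807-10502835: acttttattgTGACACGGCgggcgcccgg
TXNRD1, opposite strand, chr12:104286920-104286948: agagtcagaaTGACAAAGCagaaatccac
TXNRD1, opposite strand, chr12:104215761-104215789: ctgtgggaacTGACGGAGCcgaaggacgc
TXNRD1, same strand, chr12:104215670-104215698: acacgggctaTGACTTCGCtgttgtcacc

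The capitals of GCLM and of the first KEAP1 line are the same 9 letters, and both are followed by AGA. The GCLM core lies 34 to 26 bases before the start and falls in an exon of 1 of the gene's 4 annotated transcripts. The KEAP1 cores lie 31 to 23 and 54 to 46 bases before the start that their window surrounds, within 4 of the gene's 10 transcripts and in an exon of 1. For TXNRD1, the match followed by A lies at an inner start, within 5 of 19 transcripts and in an exon of 3, and the match 99 to 91 bases before the first start lies outside all 19. A match is a run of letters and not a measured binding site. GCLM and KEAP1 moved in opposite directions with DZNep and TXNRD1 was not called, as described next.

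The deposited values are whole numbers that sum to between 999956 and 1000068 in every sample, so they had been scaled to a common total. The number of reads is unknown, and so is whether the values allow for transcript length. Levels are therefore compared between samples and not between genes. Log2 fold changes come from limma on log2(value + 1) after trimmed-mean scaling (factors 0.920 to 1.12), with all 6 samples in 1 fit, and "called" means a two-sided Benjamini-Hochberg adjusted p under 0.05 over the 9671 tested genes. The SD of the log2 difference between replicates was 0.43 in Ctrl, 0.45 in DZNep and 0.14 in shEZH2 samples. No label says that replicates were separate cultures, so p-values measure only the spread between these samples, which may be technical. EZH2, the targeted gene, read 36 and 42 in Ctrl, 26 and 26 in DZNep and 18 and 18 in shEZH2 samples, and fell with the hairpin (log2 fold change -1.12, SE 0.18, adjusted p = 0.016, limma) and with DZNep (-0.63, SE 0.18, adjusted p = 0.026). The hairpin call was lost without shEZH2 replicate 1 (adjusted p = 0.21) or 2 (0.17), and the DZNep call without Ctrl replicate 2 (0.087), DZNep replicate 2 (0.070), shEZH2 replicate 1 (0.088) or shEZH2 replicate 2 (0.091). Of the Mullerian and epithelial markers 9 of 14 were in the matrix, and 5 read at least 10 in every sample. Their summed value, mostly KRT8 and KRT18, was 2445 to 3061 in control, 7386 to 8570 in DZNep and 3483 to 3485 in shEZH2 samples, while WT1 read 1 or 2 and CDH1 between 0 and 8. Endothelial markers summed to between 2 and 4, and leukocyte markers, nearly all CD68, to 72 and 77 in control against 18 to 36 in the other samples. Fibroblast markers summed to 25 and 28 in Ctrl, 53 and 69 in DZNep and 46 and 53 in shEZH2 samples. Within that sum PDGFRB read 11 and 12 in Ctrl, 42 and 56 in DZNep and 34 and 37 in shEZH2 samples, while COL1A1 read between 9 and 16 in all 6. The part of these shifts in the results was not tested. All 6 samples are of 1 cultured line, so these sums are not read as numbers of leukocytes, endothelial cells or fibroblasts. In bulk RNA, a change in the share of some cells of the line and a change of RNA per cell cannot be told apart.

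With DZNep, 5 of the 10 genes were called: GCLM and NQO1 were lower, and KEAP1, HMOX1 and SRXN1 were higher. Across all tested genes 42.7% were called, 22.4% higher and 20.4% lower, so the share of members called is close to that of the matrix. With shEZH2, GCLM, GSR and NQO1 were lower and none was called higher, against a background of 8.44% called, 3.91% higher and 4.53% lower. At an unadjusted p under 0.05, 1 member, KEAP1, was higher and 4 were lower. The share of all tested genes at an unadjusted p under 0.05 alone is not given here. Counts at that level, here and below, are therefore no result about the members or the lists. Between shEZH2 and DZNep 1 gene was called, GSR, which was lower in shEZH2 samples, against a background of 9.3% called, 4.88% higher and 4.42% lower, and at an unadjusted p 2 were higher and 3 lower. The median log2 fold change over the 10 genes was -0.19 with DZNep, against 0.017 over all tested genes, and -0.12 with shEZH2, against -0.0068. At the study's thresholds, an unadjusted p under 0.05 and an absolute log2 fold change above 1, GCLM was the single member called in either contrast with control, and no member was called between shEZH2 and DZNep, where limma gave 5 at an unadjusted p under 0.05 alone. The background at those thresholds was 22.3% with DZNep, 5.3% with shEZH2 and 5.52% between shEZH2 and DZNep. These shares come from limma on the scaled values, whereas the study used edgeR, a count test. They stand for 2161 genes with DZNep and 513 with shEZH2. The paper reported the other order, with more genes changed by EZH2 silencing than by DZNep. The source of this difference was not tested. Both contrasts with control share the same 2 control samples.

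**Figure D1:**
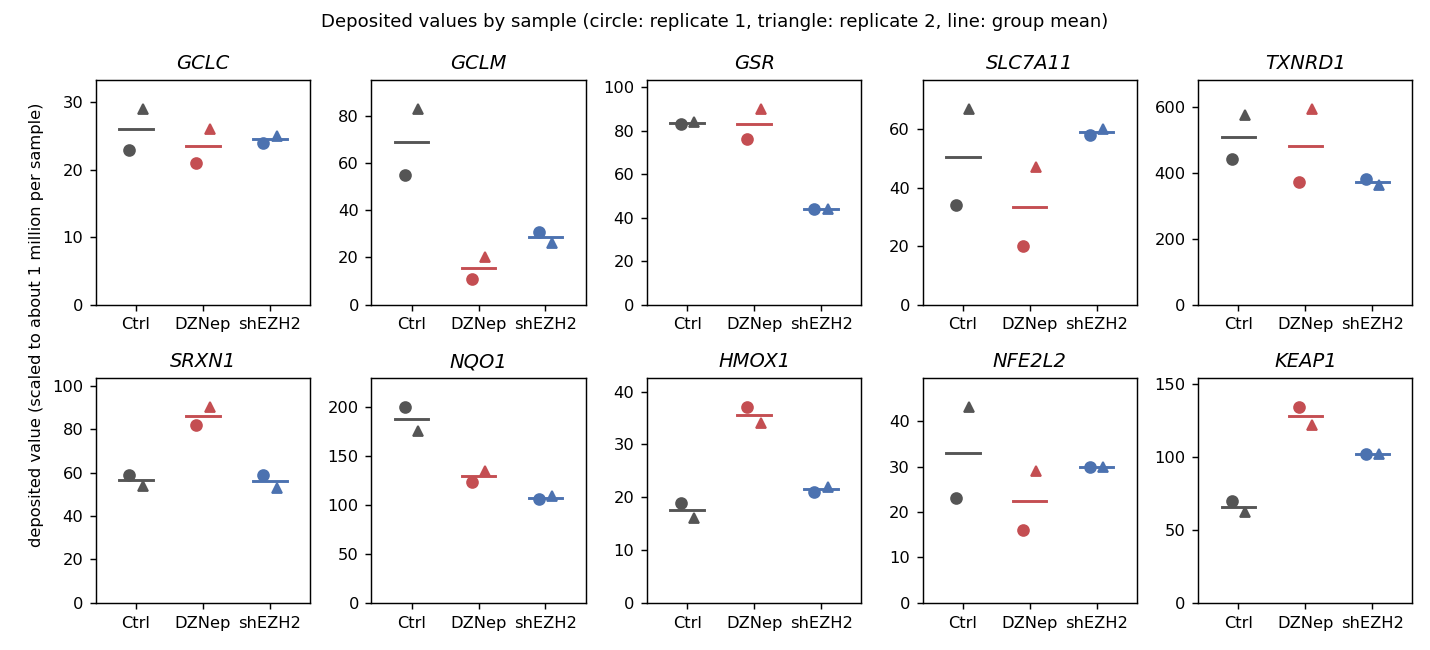
Deposited value, scaled to a common total per sample, on the y axis of each panel (from 0) against group on the x axis, for the 10 genes. Circles are replicate 1, triangles replicate 2 and lines the mean of 2 replicates. GCLM and NQO1 lie below the control samples in all 4 treated samples, and KEAP1 lies above them in all 4.

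Glutamate-cysteine ligase makes the first and rate-limiting bond of glutathione, with GCLC as the catalytic subunit and GCLM as the modifier that raises its affinity for glutamate. GCLM (GRCh38, GENCODE 44, chromosome 1, 93885199 to 93909456, minus strand) read 55 and 83 in Ctrl, 11 and 20 in DZNep and 31 and 26 in shEZH2 samples. The 3 groups did not overlap, with control highest and DZNep lowest. GCLM was lower with DZNep by a log2 fold change of -2.18 (SE 0.25, adjusted p = 0.00054, limma), a fold of 0.220, and it was called without each of the 6 samples in turn. With shEZH2 the log2 fold change was -1.27 (SE 0.25, adjusted p = 0.025, limma), and the call was lost without Ctrl replicate 2 (-1.06, adjusted p = 0.076), without shEZH2 replicate 1 (-1.34, 0.17) and without shEZH2 replicate 2 (-1.17, 0.21). On the values as deposited, without rescaling, it was also lost (-1.22, adjusted p = 0.067). Between shEZH2 and DZNep, GCLM differed by 0.91 on the log2 scale (95% interval 0.34 to 1.49, adjusted p = 0.058, limma), which was not called, although it was called without Ctrl replicate 1, Ctrl replicate 2 or DZNep replicate 2 (0.91 to 1.23).

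GCLC (chromosome 6, 53497341 to 53616970, minus strand) read 23 and 29 in Ctrl, 21 and 26 in DZNep and 24 and 25 in shEZH2 samples. The deposited control and treated values of GCLC overlapped in both comparisons, and after scaling the DZNep values lay below the control values. Its log2 fold changes were -0.21 with DZNep (95% interval -0.62 to 0.21) and -0.12 with shEZH2 (-0.54 to 0.29), neither called. The catalytic and the modifier transcript therefore differed in their values: within a sample, the ratio of the deposited GCLM value to the GCLC value was 2.39 and 2.86 in Ctrl, 0.52 and 0.77 in DZNep and 1.29 and 1.04 in shEZH2 samples. Whether the values allow for transcript length is unknown, so these ratios are not read as relative amounts, and only their change between groups is used. The ratio fell by 2.04 on the log2 scale with DZNep and by 1.17 with shEZH2, with no overlap of groups, and the exact permutation p of 0.333 in each case is the smallest that 2 against 2 samples allow.

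GSR, glutathione reductase, regenerates glutathione from its disulfide with NADPH. GSR (chromosome 8, 30678066 to 30727846, minus strand) read 83 and 84 in Ctrl, 76 and 90 in DZNep and 44 and 44 in shEZH2 samples. The shEZH2 samples were the lowest. The DZNep values lay on either side of the control values as deposited and just below them after scaling. With shEZH2 the log2 fold change was -0.96 (SE 0.16, adjusted p = 0.017, limma), a fold of 0.515, and with DZNep it was -0.08 (95% interval -0.45 to 0.28). GSR was the one member called between shEZH2 and DZNep, with a log2 difference of -0.87 (SE 0.16, adjusted p = 0.019, limma). Without shEZH2 replicate 1 or 2 both calls were lost, with adjusted p of 0.24 and 0.19 against control and 0.28 and 0.22 against DZNep, while the log2 fold changes kept between -0.81 and -0.98.

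Cystine enters the cell through system xc-, in which SLC7A11 (xCT) is the transporter and SLC3A2 the shared heavy chain, and the cysteine it yields limits glutathione synthesis. SLC7A11 (chromosome 4, 138164097 to 138242349, minus strand) read 34 and 67 in Ctrl, 20 and 47 in DZNep and 58 and 60 in shEZH2 samples. Replicate 2 was higher than replicate 1 in control and DZNep samples. Between samples of the same replicate number, SLC7A11 was lower with DZNep in both, by log2 differences of -0.76 and -0.62. No label says what a number marks, so the fit did not pair them. Both treated groups overlapped control, and the shEZH2 values lay above the DZNep values. The log2 fold change was -0.69 with DZNep (95% interval -1.50 to 0.12, adjusted p = 0.15, limma) and 0.25 with shEZH2 (-0.56 to 1.06, adjusted p = 0.68), neither called. Without Ctrl replicate 1 the DZNep value was -1.09 (adjusted p = 0.026) and without DZNep replicate 2 it was -1.17 (adjusted p = 0.020), both called. SLC7A11 was 0.94 higher on the log2 scale in shEZH2 than in DZNep samples (95% interval 0.13 to 1.75), a difference not called with all 6 samples and called without Ctrl replicate 2 (adjusted p = 0.048) or DZNep replicate 2 (1.45, adjusted p = 0.041). The partner chain SLC3A2 read 193 and 162 in Ctrl, 575 and 504 in DZNep and 366 and 390 in shEZH2 samples, and rose by 1.53 with DZNep (SE 0.21, adjusted p = 0.0012) and 1.04 with shEZH2 (SE 0.21, adjusted p = 0.028). The ratio of deposited SLC3A2 to SLC7A11 values was 5.68 and 2.42 in Ctrl, 28.8 and 10.7 in DZNep and 6.31 and 6.5 in shEZH2 samples, above the control samples in all 4 treated samples. SLC3A2 also pairs with other amino acid transporters.

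Thioredoxin reductase 1, TXNRD1, reduces cytosolic thioredoxin, and sulfiredoxin, SRXN1, restores peroxiredoxins that have been overoxidized. TXNRD1 (chromosome 12, 104215779 to 104350307, plus strand) read 442 and 577 in Ctrl, 372 and 594 in DZNep and 383 and 363 in shEZH2 samples. The DZNep values lay outside the control values on both sides as deposited and overlapped them after scaling. The shEZH2 values lay below the control values. The log2 fold change of TXNRD1 was -0.17 with DZNep (95% interval -0.61 to 0.26) and -0.49 with shEZH2 (-0.92 to -0.05, adjusted p = 0.14, limma), neither called. SRXN1 (chromosome 20, 646615 to 653200, minus strand) read 59 and 54 in Ctrl, 82 and 90 in DZNep and 59 and 53 in shEZH2 samples. Both DZNep samples were above the others, and the shEZH2 values spanned the control values. SRXN1 was higher with DZNep by 0.53 (SE 0.17, adjusted p = 0.042, limma), a fold of 1.44, and its log2 fold change with shEZH2 was -0.06 (95% interval -0.46 to 0.34). The DZNep call was lost in 5 of the 6 fits that left out 1 sample: without Ctrl replicate 2 (0.38, adjusted p = 0.20), DZNep replicate 1 (0.47, 0.13), DZNep replicate 2 (0.58, 0.056), shEZH2 replicate 1 (0.52, 0.13) and shEZH2 replicate 2 (0.53, 0.13). Between shEZH2 and DZNep the difference was -0.59 (95% interval -0.99 to -0.18, adjusted p = 0.072), which was not called. It was called on the values as deposited (-0.61, adjusted p = 0.044) and without Ctrl replicate 2 (adjusted p = 0.0499).

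NQO1 reduces quinones in a step that avoids semiquinone radicals and is a standard readout of NRF2 activity. NQO1 (chromosome 16, 69706996 to 69726668, minus strand) read 200 and 176 in Ctrl, 124 and 135 in DZNep and 106 and 109 in shEZH2 samples. All 4 treated samples were below both control samples, and the shEZH2 samples were below the DZNep samples. The log2 fold change was -0.60 with DZNep (SE 0.18, adjusted p = 0.026, limma) and -0.85 with shEZH2 (SE 0.18, adjusted p = 0.029, limma), folds of 0.658 and 0.556. NQO1 did not pass between shEZH2 and DZNep (-0.24, 95% interval -0.65 to 0.16). The DZNep call was lost without Ctrl replicate 1 (-0.43, adjusted p = 0.12), DZNep replicate 2 (-0.55, 0.065), shEZH2 replicate 1 (-0.61, 0.077) and shEZH2 replicate 2 (-0.60, 0.080). The shEZH2 call was lost without Ctrl replicate 1 (-0.68, adjusted p = 0.059), shEZH2 replicate 1 (-0.77, 0.33) and shEZH2 replicate 2 (-0.89, 0.23).

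HMOX1, heme oxygenase 1, degrades heme to biliverdin, iron and carbon monoxide and is the classic target of BACH1 repression. HMOX1 (chromosome 22, 35380361 to 35394214, plus strand) read 19 and 16 in Ctrl, 37 and 34 in DZNep and 21 and 22 in shEZH2 samples. Both DZNep samples were the highest. The shEZH2 samples lay just above the control samples as deposited and overlapped them after scaling. HMOX1 was higher with DZNep by 0.91 on the log2 scale (SE 0.22, adjusted p = 0.012, limma), a fold of 1.89, and its log2 fold change with shEZH2 was 0.24 (95% interval -0.27 to 0.75, adjusted p = 0.51). The DZNep call was lost without Ctrl replicate 2 (0.72, adjusted p = 0.056) and without DZNep replicate 1 (0.73, adjusted p = 0.054). Between shEZH2 and DZNep it differed by -0.67 (95% interval -1.18 to -0.17, adjusted p = 0.093), which was not called with rescaling and was called on the values as deposited (-0.70, adjusted p = 0.048).

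Of the regulators, NFE2L2 (chromosome 2, 177218667 to 177392756, minus strand) read 23 and 43 in Ctrl, 16 and 29 in DZNep and 30 and 30 in shEZH2 samples. Both treated groups overlapped control, and the shEZH2 values lay above the DZNep values. As for SLC7A11, replicate 2 was higher than replicate 1 in control and DZNep samples. Between samples of the same replicate number, NFE2L2 was lower with DZNep in both, by log2 differences of -0.52 and -0.67, which the fit did not pair. The log2 fold change of NFE2L2 was -0.59 with DZNep (95% interval -1.26 to 0.07, adjusted p = 0.13, limma) and -0.11 with shEZH2 (-0.78 to 0.55). The DZNep value was called without Ctrl replicate 1 (-0.96, adjusted p = 0.020) and without DZNep replicate 2 (-0.89, adjusted p = 0.045). KEAP1 (chromosome 19, 10486125 to 10503558, minus strand) read 70 and 62 in Ctrl, 134 and 122 in DZNep and 102 and 102 in shEZH2 samples. The 3 groups did not overlap, in the order control, shEZH2, DZNep. KEAP1 was higher with DZNep by 0.88 on the log2 scale (SE 0.20, adjusted p = 0.0095, limma), a fold of 1.83, and was called without each of the 6 samples in turn. With shEZH2 the difference of 0.57 (95% interval 0.12 to 1.03, adjusted p = 0.11) was not called, and on the values as deposited it was (0.62, adjusted p = 0.037). The ratio of the deposited KEAP1 value to the NFE2L2 value was 3.04 and 1.44 in Ctrl, 8.38 and 4.21 in DZNep and 3.4 and 3.4 in shEZH2 samples, above both control samples in all 4 treated samples, with an exact permutation p of 0.333, the smallest that 2 against 2 samples allow.

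**Figure D2:**
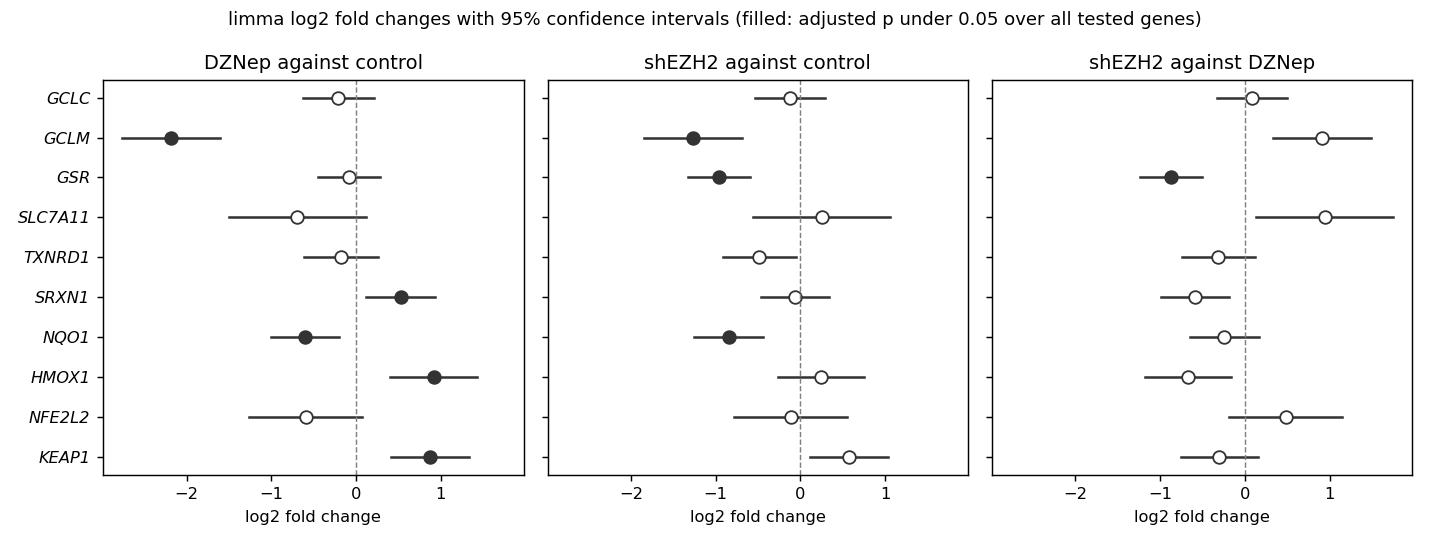
limma log2 fold change (x axis) of each of the 10 genes (y axis) in the 3 comparisons, one panel each, with bars for the 95% confidence interval. Filled points were called: 5 with DZNep, 3 with shEZH2 and 1 between shEZH2 and DZNep.

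Some of these loci overlap other genes in GENCODE 44: NFE2L2 overlaps HNRNPA3 and AGPS on the other strand, SLC7A11 overlaps SLC7A11-AS1, GCLC overlaps GCLC-AS1, and TXNRD1 overlaps EID3 on its own strand. The library was stranded, but the counting by strand was not given in the sources used here, so reads of these neighbours may be shared. All 10 members are protein coding.

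The wider system was described with 10 lists of 153 genes that include the members, of which 137 were in the matrix and 120 were tested. The lists were chosen with earlier results of these data known. Their counts and medians below are therefore descriptions and not independent evidence of direction. Apart from the members, 110 listed genes were tested, of which 23 were higher and 36 lower with DZNep, and 6 were higher and 10 lower with shEZH2. Over all tested genes 22.4% were higher and 20.4% lower with DZNep, and 3.91% and 4.53% with shEZH2, and the counts of each list below stand against these shares. Between shEZH2 and DZNep 10 of them were higher in shEZH2 samples and 3 lower. Of all 64 listed genes called with DZNep, members included, 31 were called without each of the 6 samples in turn. Of the 19 called with shEZH2 only IDH2 was, so every shEZH2 call named next other than IDH2 was lost without at least 1 sample. Apart from the members, 1 listed gene was called with shEZH2 without shEZH2 replicate 1, 2 without shEZH2 replicate 2 and 7 without Ctrl replicate 2. With DZNep 38 were called without Ctrl replicate 2, the lowest number of the 6.

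Of the DZNep calls named below, those of GPX4, GGT7, ME3, SQSTM1 and CAND1 were lost without Ctrl replicate 2 and without DZNep replicate 1. TXN2 was lost without DZNep replicate 1, SOD2 without DZNep replicate 2, and TXNIP and MGST1 without either shEZH2 replicate. FTH1, GGCT, GLRX5 and GSTK1 were lost without Ctrl replicate 2, DZNep replicate 1 or either shEZH2 replicate, and GLRX also without DZNep replicate 2. MPST and PRDX1 were lost without Ctrl replicate 1, DZNep replicate 2 or either shEZH2 replicate, and AIFM2 in each of the 6 fits. FECH and PIR passed the filter in 4 of the 6 fits and were called with DZNep in those 4.

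Regulators and partners of NRF2 were called higher more often than lower. Among 22 tested regulators, 11 rose and 3 fell with DZNep, and 3 rose and none fell with shEZH2, where 9 were higher and 1 lower at an unadjusted p under 0.05. The median log2 fold change was 0.45 with DZNep and 0.39 with shEZH2. BACH1, which competes with NRF2 for the response element, read 34 and 39 in Ctrl, 106 and 146 in DZNep and 59 and 55 in shEZH2 samples. Both treated groups lay above control without overlap. BACH1 rose by 1.67 with DZNep (SE 0.16, adjusted p = 0.00029, limma), differed by 0.58 with shEZH2 (adjusted p = 0.063) and was lower in shEZH2 than in DZNep samples (log2 difference -1.09, adjusted p = 0.010), a call lost without either shEZH2 replicate.

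The small MAF proteins are the partners with which both NRF2 and BACH1 bind DNA. MAFG read 7 and 9 in Ctrl, 23 and 21 in DZNep and 21 and 19 in shEZH2 samples, and rose by 1.30 (SE 0.21, adjusted p = 0.0022) and 1.19 (SE 0.21, adjusted p = 0.019). MAFF read 50 and 43, 113 and 111, and 92 and 86 in the same order, and rose by 1.18 (adjusted p = 0.0023) and 0.88 (adjusted p = 0.034). The treated samples of both genes lay above the control samples. MAFK rose by 0.86 with DZNep (adjusted p = 0.0093), and its difference with shEZH2 was 0.50 (adjusted p = 0.14). SQSTM1, the autophagy receptor that binds KEAP1, rose by 0.88 with DZNep (adjusted p = 0.013). The acetyltransferase CREBBP rose by 1.25 and the ubiquitin ligase TRIM21 by 1.16 with DZNep, while CAND1, which exchanges cullin ligase adaptors, fell by 1.00. Without Ctrl replicate 2 or DZNep replicate 1, 7 regulators rose with DZNep, and 1 and 0 fell. With shEZH2, 1 rose without Ctrl replicate 2, and none rose without either shEZH2 replicate.

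GSR, TXNRD1 and NQO1 all draw on NADPH. Of 16 tested genes of NADPH supply 12 fell and 1, ME3, rose with DZNep, and 4 fell and none rose with shEZH2, where 8 were lower and 0 higher at an unadjusted p under 0.05 by limma. The median log2 fold change was -1.11 with DZNep and -0.39 with shEZH2. IDH2 in this list was picked by the study on these samples, so its fall is not independent evidence of direction. IDH2, the mitochondrial NADP-dependent isocitrate dehydrogenase, read 283 and 229 in Ctrl, 13 and 12 in DZNep and 47 and 45 in shEZH2 samples. NNT, the mitochondrial transhydrogenase, read 120 and 174, 16 and 15, and 45 and 43, with log2 fold changes of -3.21 (SE 0.20, adjusted p = 5.9e-05) and -1.74 (SE 0.20, adjusted p = 0.0064). PGLS, the lactonase of the pentose phosphate pathway, read 102 and 78, 7 and 8, and 34 and 34, with log2 fold changes of -3.48 (SE 0.22, adjusted p = 5.9e-05) and -1.41 (SE 0.22, adjusted p = 0.014).

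In all 3 of these genes shEZH2 samples lay between control and DZNep samples, and all 3 were higher in shEZH2 than in DZNep samples (adjusted p between 0.0035 and 0.0083, limma), a call that NNT lost without either shEZH2 replicate. The malic enzymes ME1 and ME2 fell with DZNep by 1.28 and 1.68, and ME2 fell with shEZH2 by 1.12. The folate enzymes MTHFD2 and ALDH1L2 fell by 1.14 and 2.28 with DZNep, transketolase TKT by 1.09 and the mitochondrial NAD kinase NADK2 by 1.38. PGD, phosphogluconate dehydrogenase, read 233 and 223 in Ctrl, 236 and 225 in DZNep and 242 and 245 in shEZH2 samples, and its log2 fold changes of -0.06 and 0.05 were not called. Without 1 sample, between 9 and 11 genes of the list fell with DZNep. With shEZH2, fewer genes of the list were called lower without Ctrl replicate 2 or either shEZH2 replicate than with all samples, and more in the other fits. The list's median log2 fold change with shEZH2 lay between -0.46 (without Ctrl replicate 1) and -0.33 (without shEZH2 replicate 1).

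**Figure D3:**
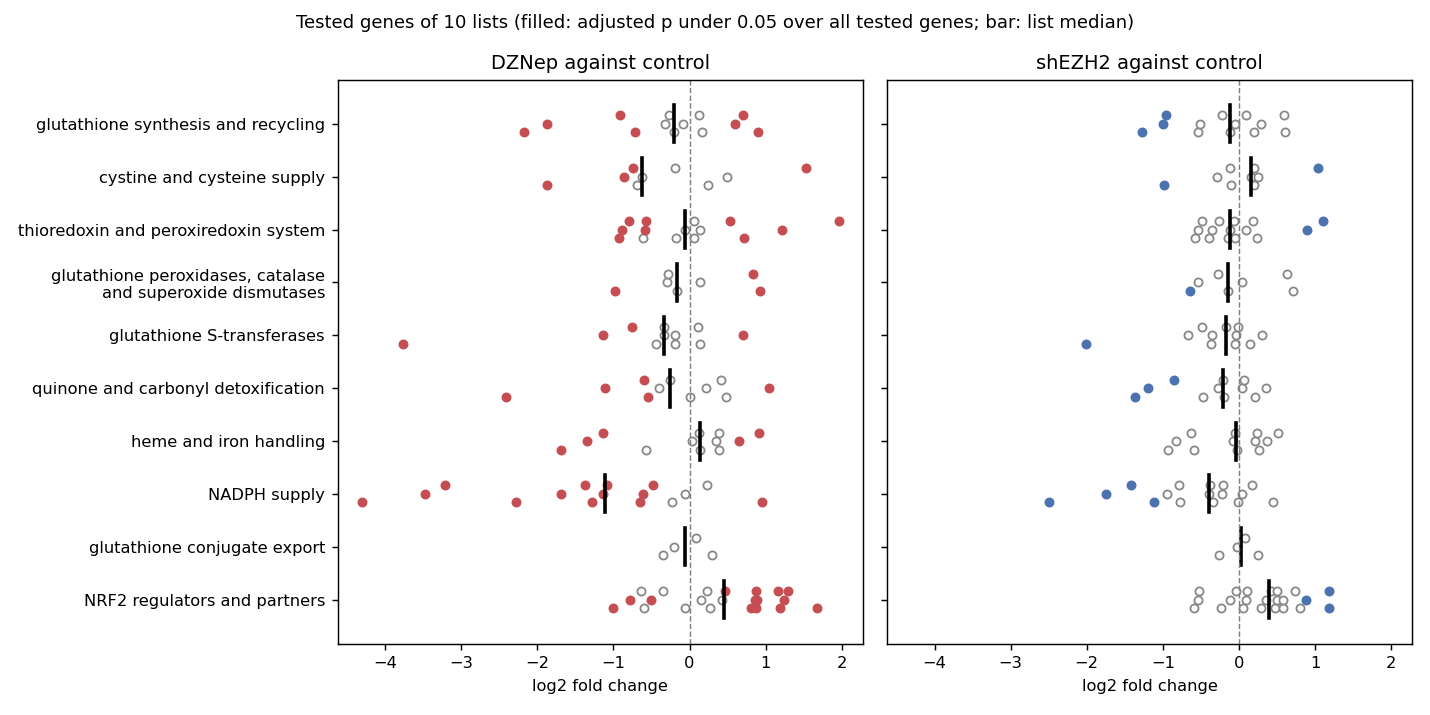
limma log2 fold change (x axis) of each tested gene in the lists (y axis), with DZNep and with shEZH2 against control. Each point is a gene, filled where called, and the bar is the list's median, which lies at -1.11 for NADPH supply and at 0.45 for NRF2 regulators with DZNep.

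Of 13 tested genes of glutathione synthesis and recycling, 3 rose (GGT7, GLRX and GLRX5) and 4 fell (GCLM, GGCT, OPLAH and GGT1) with DZNep, and 3 fell (GCLM, GSR and OPLAH) and none rose with shEZH2, where 1 was higher at an unadjusted p under 0.05. OPLAH, the 5-oxoprolinase that returns glutamate to the cycle, read 80 and 65 in Ctrl, 20 and 20 in DZNep and 37 and 37 in shEZH2 samples. It fell by 1.87 (adjusted p = 0.00049) and 0.99 (adjusted p = 0.029). GSS, which adds glycine in the last step, read 144 and 111, 111 and 102, and 111 and 114, and was not called in either comparison. None rose with DZNep without Ctrl replicate 2 or DZNep replicate 1, and none fell with shEZH2 without either shEZH2 replicate. GGT1 shares sequence with close paralogs, and its value is uncertain.

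Among 9 genes of cystine and cysteine supply, SLC3A2 rose and SLC1A4, CBS and MPST fell with DZNep, and SLC3A2 rose and SLC1A4 fell with shEZH2. SLC1A4, a neutral amino acid transporter, read 20 and 20 in Ctrl, 5 and 5 in DZNep and 10 and 10 in shEZH2 samples, with log2 fold changes of -1.87 (adjusted p = 0.00038) and -0.98 (adjusted p = 0.026). The list's median was -0.62 with DZNep and 0.16 with shEZH2.

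In the thioredoxin and peroxiredoxin system of 15 tested genes, 4 rose and 5 fell with DZNep, and TXNRD2 and TXNIP rose and none fell with shEZH2, where 3 were lower at an unadjusted p under 0.05. The mitochondrial reductase TXNRD2 read 53 and 44 in Ctrl, 222 and 183 in DZNep and 107 and 110 in shEZH2 samples. It rose by 1.97 (SE 0.23, adjusted p = 0.00056, limma) and 1.10 (SE 0.23, adjusted p = 0.029, limma), whereas cytosolic TXNRD1 was not called in either. Mitochondrial thioredoxin TXN2 rose by 1.21 with DZNep (13 and 9 in control, 32 and 24 in DZNep) and differed by 0.09 with shEZH2. PRDX1, an abundant cytosolic peroxiredoxin, fell by 0.57 with DZNep (807 and 764 in control, 526 and 589 in DZNep). TXNIP, which binds and inhibits thioredoxin, rose by 0.71 with DZNep and 0.89 with shEZH2. Only 2 genes of the list fell with DZNep without Ctrl replicate 1, and neither TXNRD2 nor TXNIP was called with shEZH2 without Ctrl replicate 2 or either shEZH2 replicate.

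Of the 7 glutathione peroxidases, catalase and superoxide dismutases, GPX4 and SOD2 rose and SOD1 fell with DZNep, and SOD1 alone fell with shEZH2. GPX4, which reduces lipid peroxides with glutathione, read 251 and 196 in Ctrl, 503 and 392 in DZNep and 366 and 347 in shEZH2 samples, which gave log2 fold changes of 0.93 (adjusted p = 0.019) and, not called, 0.63 (adjusted p = 0.14). The DZNep call of GPX4 was lost without Ctrl replicate 2 and without DZNep replicate 1 (highest adjusted p 0.086, limma). SOD1 read 226 and 268, 114 and 149, and 162 and 162, and fell by 0.98 and 0.65. Of 11 glutathione S-transferases, GSTK1 rose and GSTO2, GSTZ1 and MGST1 fell with DZNep, and GSTZ1 fell with shEZH2. GSTZ1, the maleylacetoacetate isomerase of tyrosine breakdown, read 64 and 51 in Ctrl, 3 and 4 in DZNep and 12 and 16 in shEZH2 samples, with log2 fold changes of -3.77 (SE 0.24, adjusted p = 6.2e-05) and -2.01 (SE 0.24, adjusted p = 0.0077). At 3 and 4 the rounding of the values limits the fold.

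Of 11 genes of quinone and carbonyl detoxification, AKR1B1 rose and NQO1, UGDH, PIR and AIFM2 fell with DZNep, and NQO1, UGDH and PIR fell with shEZH2. Aldose reductase AKR1B1 read 212 and 166 in Ctrl, 441 and 380 in DZNep and 211 and 195 in shEZH2 samples, and differed between shEZH2 and DZNep (-0.99, adjusted p = 0.037), a call lost without DZNep replicate 1 or either shEZH2 replicate. PIR, an iron-containing nuclear protein, read 12 and 11, 1 and 2, and 4 and 4. It passed the filter through the control samples alone, and the rounding of such low values limits its fold. UGDH, which makes UDP-glucuronate, fell by 1.11 and 1.20. In the fits without 1 sample, 1 gene of this list fell with DZNep without Ctrl replicate 1, 2 or 3 fell in the other fits, and none fell with shEZH2 without either shEZH2 replicate. Of 12 genes of heme and iron handling, 5 were called with DZNep, where 42.7% of all tested genes were. HMOX1 and FTH1 rose and BLVRA, BLVRB and FECH fell, and none was called with shEZH2 by limma, where 1 was higher and 4 lower at an unadjusted p under 0.05. The biliverdin reductases BLVRA and BLVRB, which act next after HMOX1, fell by 1.13 and 1.35 with DZNep. Ferrochelatase FECH, the last enzyme of heme synthesis, fell by 1.69 and passed the filter through the control samples alone. FTH1 has many processed pseudogenes, and its value is uncertain. None of 4 tested genes of glutathione conjugate export was called in either contrast by limma, at an adjusted or an unadjusted p under 0.05.

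**Figure D4:**
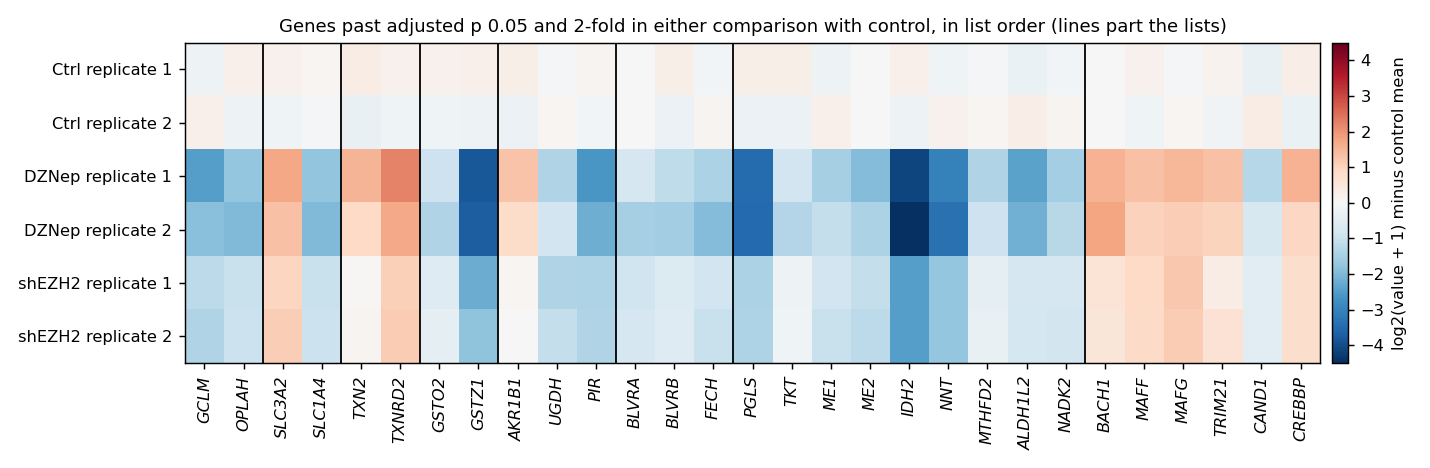
Heat map of 29 listed genes with an adjusted p under 0.05 and an absolute log2 fold change of at least 1 against control in either comparison (columns), by sample (rows), coloured by log2(value + 1) minus each gene's control mean after scaling. GCLM is the one member among them, and most lower genes, such as IDH2, PGLS and GSTZ1, are lowest in the 2 DZNep samples and between control and DZNep in the 2 shEZH2 samples.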

How the data were processed

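RNA-Seq of OVCAR8 cells gave 6 samples in 3 groups, assigned from the sample labels. Per the study's methods, the authors depleted ribosomal RNA and made stranded libraries, and used fastp for trimming, STAR for alignment (GRCh38) and RSEM for gene levels. The deposited values are a score: scaled to a common total per sample and rounded to whole numbers by the authors, although the table is called a count matrix. Reads per sample are unknown, so no counting interval was computed, and rounding and 2 replicates limit the precision. The labels print doses in mM and mg/mL, and the methods' units are used. The methods do not say which line gave the control RNA.

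Genes that reached 10 in 2 or more samples were tested with limma 3.58.1 (R 4.3.3, trend) on log2(value + 1), after TMM factors without weights (trim 30% of log ratios and 5% of means), with 3 contrasts in 1 fit of all 6 samples. The methods name a count test, which scaled values do not allow. The script was tested on simulated data. The members and lists were chosen with earlier results of these data known. Named genes were EZH2, the 10 members, listed genes with an adjusted p under 0.05 and an absolute log2 fold change of at least 1 against control, and the 3 genes most like each called member. GGT7, GLRX, GLRX5, GGCT, GGT1, GSS, CBS, MPST, TXNIP, PRDX1, GPX4, SOD1, SOD2, GSTK1, MGST1, AIFM2, FTH1, ME3, PGD, MAFK and SQSTM1 fall outside this rule and were chosen after their values were seen. Some listed genes are counted in their lists but not reported here by name. Coordinates are from GENCODE 44 and promoter windows from RefSeq (GRCh38.p14). Alternatives were other scalings, pseudocounts of 0.5 and 5, filters, the replicate block, limma without trend, the study's thresholds, fits of only the 2 groups compared, the mean of the shEZH2 samples as 1 sample, and each sample left out. Figures were drawn with matplotlib 3.10.9.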

Additional observations from a re-analysis of the deposited data

How the results depend on the processing

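The directions of the called members did not change under any alternative run. Of the members, 5, 3 and 1 were called with DZNep, with shEZH2 and between shEZH2 and DZNep. At the study's thresholds these were 1, 1 and 0 (5 at an unadjusted p under 0.05 alone in the last), and with only the groups compared 3, 3 and 4. With the mean of the shEZH2 samples as 1 sample they were 3, 0 and 0, where limma gave 3 at an unadjusted p under 0.05 in each of the last 2. On the values as deposited 3 were called between shEZH2 and DZNep. Leaving out each sample gave 3 to 6, 0 to 3 and 0 to 4. Of the other listed genes 59, 16 and 13 were called. With a filter of at least 50 in 2 samples 33 of 65 and 10 of 65 were called with DZNep and shEZH2, and at the study's thresholds 28 with DZNep. With only the groups compared 25 were called with shEZH2, and with the mean of the shEZH2 samples 2 with shEZH2 and 3 between shEZH2 and DZNep. Leaving out each sample gave 38 to 52, 1 to 26 and 2 to 17. The cause of these moves was not tested.

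Without 1 sample, the log2 fold change with shEZH2 reversed for SLC7A11 (-0.15 to 0.65) and SRXN1 (-0.20 to 0.080) without Ctrl replicate 1 and for NFE2L2 (-0.47 to 0.25) without Ctrl replicate 2, and that of TXNRD1 with DZNep (-0.40 to 0.035) without DZNep replicate 1. None of these 4 was called with all samples.

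Samples with the same replicate number shared deviations between control and DZNep (correlation 0.79 over 9671 genes) but not with shEZH2 (-0.024 and -0.038), and no label says what a number marks, so the numbers were not taken as pairing. With the replicate block 7, 5 and 5 members and 67, 41 and 31 other listed genes were called. The block with only the DZNep and control samples, chosen after seeing the data, called 8 members and 81 other listed genes. Except at the study's thresholds, the shares of all tested genes called in the alternative runs are not given here. The counts in those runs are therefore no result about the members or the lists.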

Other observations

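For each member called against control, the genes with the most similar pattern over the 6 samples were taken from about 3330 tested genes with a mean deposited value of at least 50, by the root mean square difference of centred log2 values. For GCLM these were MSMO1 (0.121), PFN2 (0.131) and ZYG11B (0.138). MSMO1, a sterol oxidase of cholesterol synthesis, read 114 and 143 in Ctrl, 26 and 42 in DZNep and 66 and 56 in shEZH2 samples. For NQO1 they were GMPR2 (0.047), ARPC1A (0.091) and TUBB6 (0.092), and for GSR KIAA1191 (0.151), XAGE1A (0.158) and EMP1 (0.164). For KEAP1 they were ARFGAP2 (0.042), NME3 (0.045) and SLC39A1 (0.045), for HMOX1 PHB (0.014), TUBB2A (0.028) and PES1 (0.041), and for SRXN1 EZR (0.037), TRAPPC3 (0.041) and SDC4 (0.049). Among the members themselves the closest pair was HMOX1 and KEAP1 (0.170), followed by SRXN1 and HMOX1 (0.194). These distances are descriptions over 6 samples that share their groups, and no test was made of them.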
